A study of Mus musculus with 24 samples.

Results

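Co-expression of both cleavage fragments of p65/RelA was compared with expression of the intact protein in DA1-3B, a mouse leukaemia cell line that carries the BCR-ABL fusion. The comparison takes 8 of the 24 arrays of the series, chosen by the transfection label: 4 arrays labelled p65/RelA-p1-361+p363-549 (both fragments) and 4 labelled p65/RelA-WT (WT). Cells of every group had the strain label C3H eOuJ, carried Bcr-ABL and were grown in DMEM with fetal calf serum, so these features are shared by both groups. Both-fragment cells received a plasmid for residues 1 to 361 and a plasmid for the C-terminal residues up to 549, whose first residue reads p363 in the sample names and 362 in the treatment text. WT cells received full-length p65, and cells with the empty plasmid (VOID, 4 arrays) serve below as the background level. Promoters of the plasmids, transfection efficiency, and the time between transfection and RNA extraction are not given in the labels. The other 12 arrays held a non-cleavable mutant, D361E, and each fragment alone.

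NF-kB is a family of dimeric transcription factors that drives inflammatory, survival and immune genes. p65 is the subunit with a strong transactivation domain: its N-terminal Rel homology region binds DNA, dimerises and is held in the cytoplasm by IkB proteins, and its C-terminal part recruits the transcription machinery. A cut between these regions separates DNA binding from transactivation. Among the genes that NF-kB induces are its own inhibitors, such as Nfkbia, which encodes IkBα, and Tnfaip3, which encodes the ubiquitin-editing enzyme A20.

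Total RNA was labelled with Cy3 and hybridised to one-colour Agilent arrays. The 75th percentile of the signal was 1065, 1214, 847 and 1020 in both-fragment replicates 1 to 4, and 773, 1014, 825 and 1023 in WT replicates 1 to 4. Over the 24 arrays 49.4% to 55.5% of spots were well above background and no spot was saturated. Precision is limited by the number of arrays, and nothing in the labels tells separate cultures from repeat preparations, so the p-values describe the spread between these arrays, which may be technical. Levels below are log2 processed signal minus the 75th percentile of the same array. Differences are both fragments minus WT on this log2 scale, for 4 against 4 arrays or, without the array numbered 24, for 3 against 4. Their limma standard errors rest on a spread pooled over all 6 groups of the series. A gene is called where the Benjamini-Hochberg adjusted p of limma over all genes is under 0.05. The cell line label was checked against markers: all 10 pan-leukocyte genes were measured, with a mean level of 2.79 to 3.58 over the 8 arrays, and 2 of 16 fibroblast, endothelial and epithelial markers were measured. Ptprc, which encodes the leukocyte antigen CD45, was well above background on all 8 arrays.

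One of the both-fragment arrays stood apart from the other 3. It is replicate 4, the array numbered 24 in its title. When the test was run without it, 525 genes were called, and on array 24 itself 254 of these (48.4%) lay beyond all 4 WT arrays on the called side. Its median shift towards the call was 0.24 (log2), against 1.34 for the mean of the other 3 both-fragment arrays, and it was nearer to the WT mean than to those 3 arrays for 422 of the 525 genes. The check was repeated with each other both-fragment replicate left out. Replicate 1 lay beyond WT for 33 of 33 called genes, replicate 2 for 34 of 34 and replicate 3 for 101 of 119 (84.9%). Those fits kept array 24 and called fewer genes, so these shares and the 48.4% rest on unlike sets of genes. An array outside both groups lay close to both-fragment replicates 1 to 3: replicate 4 of p363-549, numbered 23, was beyond WT on the called side for 489 of the 525 genes (93.1%). The remaining arrays outside both groups were beyond WT for 90 to 199 of these genes (17.1% to 37.9%), the array numbered 22 for 171. Over these genes the median absolute difference of array 24 from the mean of replicates 1 to 3 was 0.29 for p1-361, 0.36 for WT, 0.38 for p363-549 and 0.99 for both fragments, array 22 (labelled p1-361) was at 0.24 from p363-549 and 0.32 from p1-361, and array 23 at 0.29 from both fragments and 0.93 from p363-549. Over all genes tested, each of the 3 arrays was nearest to both fragments (0.22 to 0.26). Fcer1g read 3.65 on array 24 and 3.49, 3.72 and 3.57 in p1-361 replicates 1 to 3, but 1.12 on array 22, and F13a1 read -1.47 on array 24 and -1.46, -1.27 and -1.44 in those replicates. Whether the labels of arrays 22, 23 and 24 were exchanged was not tested. If they were, values with all arrays mix conditions. Standard errors and p-values without array 24 would be affected too. Their spread is pooled over the 6 groups and keeps arrays 22 and 23 as labelled. With arrays 22, 23 and 24 all left out, 870 genes were called. The arrays were kept as labelled, and the comparison is given with all arrays and without array 24. Array 24 was singled out by its values, so a smaller spread without it is built in.

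**Figure D1:**
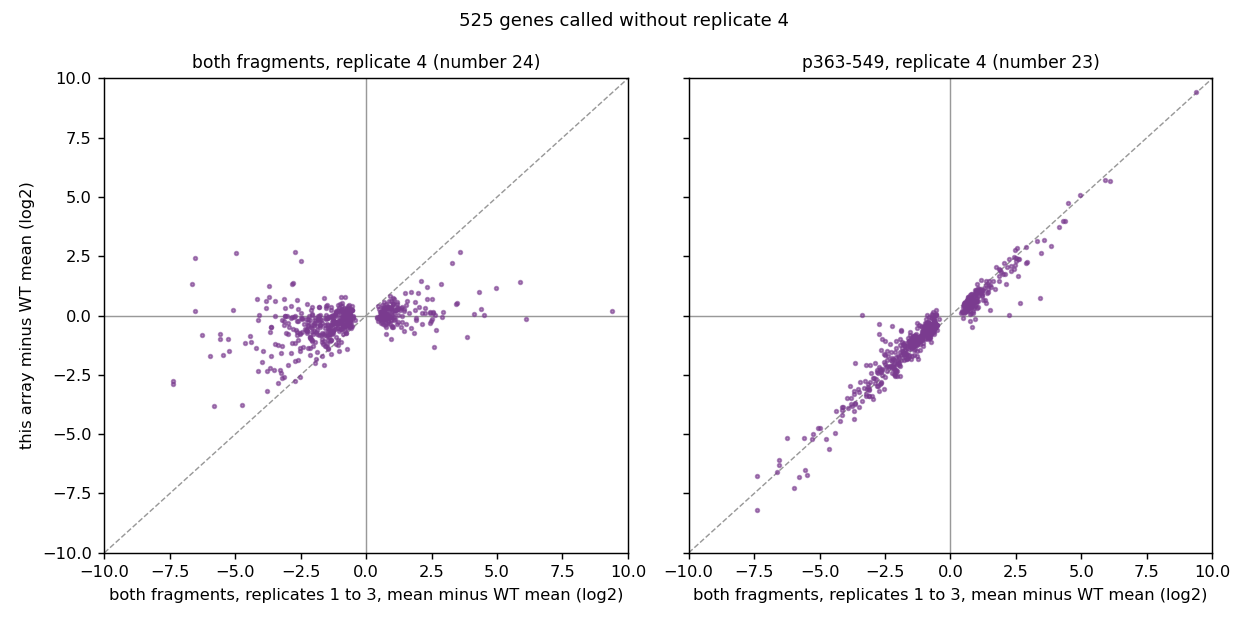
Position of the arrays numbered 24 (left) and 23 (right) over the 525 genes called without array 24. Each point is 1 gene; the x axis is the mean of both-fragment replicates 1 to 3 minus the WT mean and the y axis the plotted array minus the WT mean, both in log2 units, with the dashed line at equality. Array 23, labelled p363-549, follows the line (93.1% of genes beyond WT on the called side), and array 24, labelled both fragments, lies mostly near 0 (48.4%).

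With all 8 arrays, 154 of 14991 genes were called (1.03%). Of these, 16 were higher in both-fragment cells (0.107%) and 138 were lower (0.921%). Most falls were large: 116 of the 138 exceeded 2-fold and 54 exceeded 4-fold, with a median difference of -1.67, while 10 of the 16 rises exceeded 2-fold and the median rise was 1.12. The median difference over all genes tested was 0.04. Without array 24, 525 of 15123 genes were called (3.47%), 171 higher (1.13%) and 354 lower (2.34%), and 153 of the 154 genes were among them, each with the same sign. The exception was Mc1r. The 4 both-fragment arrays lay apart from the 4 WT arrays for 1123 genes (7.49%), and without array 24 the remaining 3 lay apart for 2515 (16.6%). Where a called gene had other probes that passed the filter, 31 of 32 such probes had the same sign with all arrays (the exception was in Kalrn), and 112 of 114 without array 24 (Kalrn and Zfp644).

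The totals moved with single arrays on both sides. Leaving out 1 array gave 33 calls without both-fragment replicate 1, 34 without replicate 2, 119 without replicate 3, and 66, 38, 64 and 66 without WT replicates 1 to 4. Of the 50 named genes called with all arrays, 18 lost the call whichever of the other 7 arrays was left out: Bcl2, Cd200r3, Cd5, Cebpb, Celf6, Cma1, Csf1, Fcgr2b, Gbp4, Gpr34, Ier3, Il2ra, Lag3, Selplg, Slc17a8, Tnfsfm13, Tph1 and Vwf. For 16 no such removal ended the call: Atf5, B3gnt5, Ccl17, Cd200r2, Cpa3, Cth, Grb7, Il13, Il16, Itgb7, Itih3, Map3k19, Prkd3, Tmem273, Tnfaip3 and Tnfsf14. Map3k19 appears to have entered the test only through the WT arrays, so its place among them is no support. Without array 24, a further array left out gave 255 (both-fragment replicate 1), 200 (replicate 2) and 316 (WT replicate 2). Sample numbers run through the 6 groups in 4 sets of 6 consecutive numbers. Deviations of both-fragment and WT arrays correlated at 0.22 to 0.71 within the 4 sets, and at -0.67 to 0.45 between different sets. Only set 3 (0.71) exceeded every pair from different sets, so a pairing by set is not shown for the others. With the set as a block 1103 genes were called with all arrays, 573 higher (3.82%) and 530 lower (3.54%), and 4590 without array 24, 2579 higher (17.1%) and 2011 lower (13.3%). Values with the sets as a block are given below for some of the named genes whose call this block added. Those added calls depend on a pairing that is not shown. The slide was a second batch: slide 3 held WT replicate 1 and both-fragment replicate 2, and slide 6 held WT replicate 3 and array 24. With the slide as a block 31 genes were called (127 without array 24). This ended 35 calls of named genes with all arrays and 55 without array 24. Those lost with all arrays included Slc17a8, Cd5, Cenpp, Tph1, Cma1, Cd200r3, Lat2, Gpr34, Cth, Tespa1, Ccl3, Ccr7 and Csf1. Normexp background correction ended 38 and 61 named calls, Ccl17 among them in both fits. Most of these losses are not repeated at each gene below. Within slides 3 and 6 the 1-array differences were -5.91 and -3.09 for Cpa3, -6.16 and -3.77 for Itih3, -1.25 and -1.57 for Tnfaip3 and -1.91 and -1.81 for Grb7. These genes were chosen among those whose groups do not overlap, which fixes the sign of these values.

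**Figure D2:**
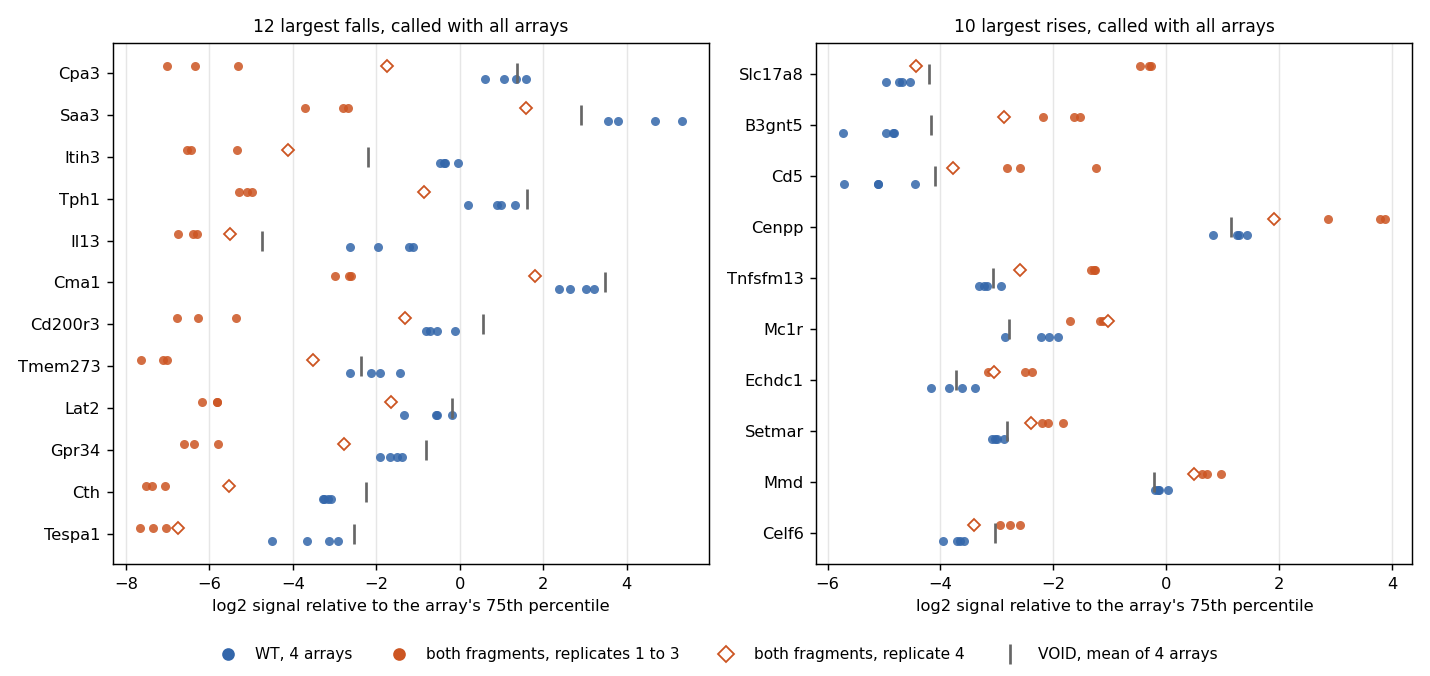
Signal of the 12 largest falls and the 10 largest rises called with all arrays, per array. The x axis is log2 signal relative to the array's 75th percentile; blue points are the 4 WT arrays, filled orange points both-fragment replicates 1 to 3, open diamonds replicate 4 (the array numbered 24) and grey bars the VOID mean. These genes were taken among those whose groups do not overlap, and replicate 4 lies between the other 3 arrays and WT for most of them.

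Among genes whose groups did not overlap, the largest falls were those of Cpa3, Saa3, Itih3, Tph1 and Il13. Cpa3, the mast cell carboxypeptidase A3, was at -6.34, -5.31, -7.02 and -1.74 in both-fragment replicates 1 to 4 and at 0.60, 1.60, 1.35 and 1.05 in WT replicates 1 to 4. Every both-fragment array was below every WT array, with array 24 the nearest to WT. Its difference was -6.25 ± 1.03 (adjusted p = 0.00411), and -7.37 ± 0.94 without array 24 (adjusted p = 0.00015). Only 2 of the 4 both-fragment arrays were well above background, and the VOID mean was 1.39, near WT. Saa3, an acute-phase serum amyloid A protein, was at -2.67, -2.79, -3.71 and 1.59 in both-fragment and 3.56, 4.68, 5.33 and 3.79 in WT cells. Again array 24 was the highest of its group and still below all WT arrays. Saa3 fell by 6.23 on the log2 scale (adjusted p = 0.016) and by 7.40 without array 24 (adjusted p = 0.000876). With all arrays the Saa3 call was lost when both-fragment replicate 1 or 2 or WT replicate 2 or 3 was left out, and with the slide as a block.

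Itih3, a heavy chain of the inter-alpha-trypsin inhibitor family of hyaluronan-binding proteins, had the smallest p of the 12 largest falls. Its probe lies on chromosome 14, bases 31721835 to 31721894 of build mm9. Levels were -6.43, -6.53, -5.34 and -4.11 in both-fragment cells and -0.37, -0.47, -0.34 and -0.03 in WT, so that the groups were several log2 units apart, and the VOID mean lay between them at -2.19. The difference was -5.30 ± 0.45 (adjusted p = 7.77e-07). Without array 24 no both-fragment array was well above background, and Itih3 was at least 30.1-fold lower (adjusted p = 4.26e-08). This call held under each of the 22 alternatives that gave Itih3 a value with all arrays. Such counts of alternatives, here and below, include the deposited table of the series, which repeats the same signal. Il13, a type 2 cytokine, was above background on 0 of 4 both-fragment arrays (-6.30, -6.75, -6.39 and -5.50) and on all 4 WT arrays (-2.64, -1.11, -1.97 and -1.22). It was at least 10.6-fold lower (adjusted p = 0.00295), and at least 11.2-fold lower without array 24 (adjusted p = 0.00121). Only 2 of 4 VOID arrays measured Il13 above background, with a mean of -4.74, so both-fragment cells resembled VOID cells more than WT cells for this gene. Normexp background correction ended the Il13 call.

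In the other leading falls array 24 was again the closest to WT. Tph1, the tryptophan hydroxylase of serotonin synthesis outside the brain, was at -4.99, -5.10, -5.29 and -0.85 in both-fragment cells and 0.89, 1.32, 0.99 and 0.19 in WT, a difference of -4.90 ± 1.09 (adjusted p = 0.031; -5.97 ± 1.03 without array 24). Cma1, mast cell chymase, was at -2.60, -2.64, -2.99 and 1.82 against 2.37, 3.04, 3.23 and 2.64, a difference of -4.42 ± 0.98 (adjusted p = 0.031; -5.56 ± 0.86 without array 24). Cd200r3, an activating receptor of the CD200 receptor family, was at -5.36, -6.27, -6.77 and -1.31 against -0.72, -0.12, -0.80 and -0.55. In all 3 genes replicates 1 to 3 lay far below WT and array 24 within 2 log2 units of the WT mean. The fall of Cd200r3 was -4.38 ± 0.93 (adjusted p = 0.0245), and at least 25.4-fold without array 24, where no both-fragment array was above background. Lat2, a membrane adaptor of Fc receptor signalling, fell by 4.21 (adjusted p = 0.0221), and was at least 23.6-fold lower without array 24. Gpr34, a lysophosphatidylserine receptor, fell by 3.77 (adjusted p = 0.0217) and was at least 12.1-fold lower without array 24. Tmem273 fell by 4.30 (adjusted p = 0.00295), and was at least 9.15-fold lower without array 24. Cth, which makes cysteine from cystathionine, and Tespa1, an adaptor of antigen receptor signalling in thymocytes, were above background on no both-fragment array and were at least 3.85-fold and 2.99-fold lower (adjusted p = 0.00487 and 0.0158; at least 4.08-fold and 3.17-fold without array 24).

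Mast cell and basophil genes were among the falls. Of 14 measured of a list of 23, 5 fell and 0 rose with all arrays (Cd200r3, Cma1, Cpa3, Fcer1a and Tph1), where 0.921% of all genes fell, and the median difference of the 14 was -2.11. Without array 24, 8 fell, with Fcer1g, Mcpt4 and Mcpt8 added, where 2.34% of all genes fell, and the median was -2.90. Fcer1a, the IgE-binding chain of the high-affinity IgE receptor, was at -7.25, -7.56, -6.91 and -5.76 in both-fragment and -3.68, -3.39, -3.23 and -3.97 in WT cells, and was at least 2.97-fold lower (adjusted p = 0.0167; at least 3.14-fold without array 24). WT cells were themselves below the VOID mean of -0.20. The granule proteases Mcpt4 and Mcpt8 fell without array 24, Mcpt4 by 3.50 (adjusted p = 0.00609) and Mcpt8 by at least 1.85-fold (adjusted p = 0.0165). They differed by -2.47 ± 0.84 and -1.76 ± 0.56 with it (adjusted p = 0.204 and 0.172). Other members of the list did not pass in either fit: Gata2, a transcription factor of mast cell and progenitor fate, differed by -0.50 ± 0.18 (-0.53 ± 0.20 without array 24), Mitf by -0.28 ± 0.21 (-0.21 ± 0.23), Hdc, the histamine-forming enzyme, by 0.08 ± 0.17 (0.28 ± 0.15), and Slc18a2, the granule amine transporter, by -0.61 ± 0.22 (-0.60 ± 0.25).

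The mean level of the 14 mast cell and basophil genes was -2.88, -2.85, -2.60 and -0.37 in both-fragment replicates 1 to 4, and -0.0007, 0.25, 0.27 and 0.005 in WT replicates 1 to 4. It was between 0.30 and 0.92 in VOID, and -2.76 on the array numbered 23. Replicates 1 to 3 of both fragments and array 23 were low together, while array 24 was below every WT array by less. The pan-leukocyte genes were also lower in both-fragment arrays (2.79 to 3.17 in their mean) than in WT (3.31 to 3.58). In these bulk samples fewer cells of a type and less RNA per cell cannot be told apart. The counts moved with the processing: 2 members fell with normexp correction (0.153% of all genes; 5 without array 24, 0.661%) and 1 with the slide as a block (0.193%; 5 without array 24, 0.635%). With the sets as a block 7 fell (3.54% of all genes; 11 without array 24, 13.3%), and 8 with arrays 22, 23 and 24 left out (3.45%).

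Some called genes lay beside other called genes. Without array 24, 116 of 521 called genes with a mapped probe (22.3%) had another called gene within 100 kb, against 1456 of 14474 genes that were not called (10.1%), and in 98 of the 116 the neighbour moved the same way. Lower on chromosome 14 were Cma1, Mcpt4 and Mcpt8 together, Gzmc and Gzmb, and the cluster Itih4, Itih3 and Itih1. On chromosome 16 the neighbours Cd200r4, Cd200r2 and Cd200r3 were lower, on chromosome 7 Tph1, Saa3 and Saa1, and on chromosome 11 the pairs Il4 and Il13, Osm and Lif, and Ccl3 and Ccl4. The pair Tgtp2 and Ifi47, interferon-inducible GTPases on chromosome 11, was higher, as were 5 neighbouring probes on chromosome 4, 3 of them named Gm13271, Gm13272 and Gm13275. Several of these neighbours are related copies, for which a probe can also bind RNA of the other copy, and no test of clustering was made.

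The NF-kB subunits themselves did not pass. Rela read 4.94, 4.86, 4.79 and 4.81 in both-fragment replicates and 4.75, 4.68, 4.84 and 4.85 in WT replicates, and the groups overlapped. Its difference was 0.07 ± 0.10 (adjusted p = 0.751), and 0.08 ± 0.11 without array 24 (adjusted p = 0.74), with a VOID mean of 4.38. Its only probe is on chromosome 19, bases 5648070 to 5648129 of mm9, and whether the plasmid transcripts carry that stretch is not given, so Rela does not check the labels. Relb, the subunit of the non-canonical pathway, was at 1.29, 1.37, 0.87 and 0.06 against 0.41, 0.04, 0.22 and 0.24, a difference of 0.67 ± 0.35 (adjusted p = 0.429; 0.95 ± 0.35 and 0.166 without array 24). Nfkb2, the p100 precursor, differed by 0.67 ± 0.26 (adjusted p = 0.292; 0.80 ± 0.28 and 0.142 without array 24), and Nfkb1, the p105 precursor, by 0.33 ± 0.20 (adjusted p = 0.491; 0.41 ± 0.22 and 0.385 without array 24). Replicates 1 to 3 were above all WT arrays in Relb, and all 4 both-fragment arrays were in Nfkb2. With the sets as a block and array 24 left out, Relb (1.02, adjusted p = 0.0449) and Nfkb2 (0.87, adjusted p = 0.0298) passed, where 17.1% of all genes rose. With arrays 22, 23 and 24 left out, 2 of the 4 measured subunits rose (2.26% of all genes).

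Among 13 measured IkB inhibitors and feedback regulators 1 fell and 0 rose, in both fits, where 0.921% of all genes fell with all arrays and 2.34% without array 24. This was Tnfaip3, at -1.18, -1.53, -2.16 and -1.91 in both-fragment and -0.27, -0.42, -0.34 and -0.09 in WT cells. All 4 both-fragment arrays, array 24 included, were below all WT arrays and above the VOID mean of -2.62. Tnfaip3 fell by 1.41 (adjusted p = 0.013), and by 1.34 without array 24 (adjusted p = 0.0123). The call with all arrays held under each of the 23 alternatives that were run. Without array 24 it was lost with normexp correction and when both-fragment replicate 2 or 3 was also left out. Nfkbia was at 4.31, 3.76, 4.15 and 3.56 against 5.09, 4.84, 5.16 and 5.04, again with no overlap, and with a VOID mean of 3.33. Its difference of -1.09 ± 0.29 did not pass (adjusted p = 0.0835; -0.96 ± 0.31 and 0.107 without array 24), but did with the sets as a block (adjusted p = 0.0345, and 0.0247 without array 24). Nfkbie differed by -0.17 ± 0.20 (adjusted p = 0.722) and by 0.08 ± 0.17 without array 24, and Tnip1, a partner of A20, by 0.15 ± 0.15 (adjusted p = 0.666; 0.17 ± 0.17 without array 24). Nfkbib (0.44 ± 0.22 and, without array 24, 0.44 ± 0.24), Nfkbiz (-0.38 ± 0.27 and -0.52 ± 0.29), Tnip2 (-0.15 ± 0.25 and -0.12 ± 0.27) and the deubiquitinase gene Cyld (-0.32 ± 0.22 and -0.32 ± 0.24) did not pass in either fit. With the sets as a block and array 24 left out, 1 of the 13 rose, Nfkbib (adjusted p = 0.0186), where 17.1% of all genes rose, and 5 fell, where 13.3% of all genes fell: Tnfaip3, Nfkbia, Nfkbiz (0.0351), Tnip2 (0.0438) and Cyld (0.0188). Of 27 measured NF-kB signalling components, such as kinases and adaptors, 0 passed in either fit.

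Promoters of the 5 named genes that passed in at least 1 fit without a block and hold an NF-kB-like motif are shown because the transfected protein is an NF-kB subunit. They are from RefSeq (build GRCm38.p6), run from 250 bases before to 50 bases after the annotated start, and are written 5′ to 3′ on the strand of the gene. Capitals mark the motif searched on both strands, which is GGG, any 2 bases, then TTTCC (on the other strand GGAAA, any 2 bases, then CCC). Tnfaip3 (chr10:19015361-19015660, minus strand) holds it 12 bases before the start, Csf1 (chr3:107760420-107760719, minus strand) 154 bases before, Il16 (chr7:83655446-83655745, minus strand, 1 of its 3 entries) 49 bases before, C3ar1 (chr6:122856108-122856407, minus strand) 14 bases before, and Cxcl3 (chr5:90785851-90786150, plus strand) 73 bases before.
Tnfaip3: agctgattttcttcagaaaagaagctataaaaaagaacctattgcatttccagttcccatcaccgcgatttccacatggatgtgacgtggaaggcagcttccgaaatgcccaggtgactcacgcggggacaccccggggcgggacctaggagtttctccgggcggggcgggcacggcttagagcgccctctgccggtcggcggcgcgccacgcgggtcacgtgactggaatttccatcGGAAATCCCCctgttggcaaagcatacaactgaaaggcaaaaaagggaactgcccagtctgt
Csf1: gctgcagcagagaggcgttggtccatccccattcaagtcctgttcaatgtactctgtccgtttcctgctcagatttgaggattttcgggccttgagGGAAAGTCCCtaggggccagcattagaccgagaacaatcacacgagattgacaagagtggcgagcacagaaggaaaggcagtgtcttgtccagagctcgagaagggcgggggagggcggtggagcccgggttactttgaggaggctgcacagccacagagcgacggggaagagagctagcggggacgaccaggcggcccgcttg
Il16: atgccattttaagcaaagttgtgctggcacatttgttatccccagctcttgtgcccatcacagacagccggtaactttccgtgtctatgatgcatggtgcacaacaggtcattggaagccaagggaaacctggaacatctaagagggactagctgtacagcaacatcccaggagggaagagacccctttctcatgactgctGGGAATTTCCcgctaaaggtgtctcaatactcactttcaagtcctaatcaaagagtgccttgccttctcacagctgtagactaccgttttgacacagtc
C3ar1: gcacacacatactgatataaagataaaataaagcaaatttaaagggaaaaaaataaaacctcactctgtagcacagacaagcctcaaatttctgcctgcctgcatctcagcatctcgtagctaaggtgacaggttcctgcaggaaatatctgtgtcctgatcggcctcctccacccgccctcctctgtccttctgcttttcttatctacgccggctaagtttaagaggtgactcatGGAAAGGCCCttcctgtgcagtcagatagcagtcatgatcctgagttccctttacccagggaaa
Cxcl3: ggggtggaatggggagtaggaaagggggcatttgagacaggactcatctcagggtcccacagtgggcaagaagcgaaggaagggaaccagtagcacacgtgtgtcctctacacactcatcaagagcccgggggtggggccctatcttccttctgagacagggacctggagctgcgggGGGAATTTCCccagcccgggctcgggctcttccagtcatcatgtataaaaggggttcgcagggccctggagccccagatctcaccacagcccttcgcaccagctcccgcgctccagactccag
Tnfaip3, Csf1 and Il16 fell in both fits. C3ar1, the receptor of the complement fragment C3a, fell and Cxcl3 rose without array 24, and C3ar1 was at least 2.33-fold lower (adjusted p = 0.00601; -2.04 ± 0.68 and 0.194 with all arrays).

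The motif occurred in 535 of 32851 promoters of the RefSeq table (1.63%). It occurred in 5 of 131 promoters of genes lower with all arrays (3.82%) and in 0 of 14 promoters of genes higher with all arrays. Without array 24 the numbers were 7 of 317 (2.21%) for lower and 5 of 147 (3.40%) for higher genes. Of the 119 genes named by rule, 90 matched a promoter and 8 held the motif. A match describes these letters in this window only.

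Of 53 measured NF-kB target genes, 7 fell and 0 rose with all arrays, beside 0.921% lower and 0.107% higher over all genes. They were the chemokines Ccl3, Ccl5 and Ccl17, Csf1, Ier3, Saa3 and Tnfaip3. Without array 24, 9 fell, with Ccl4 and Tnfrsf1b added, and 1 rose, Slfn2, beside 2.34% and 1.13% over all genes. The median over the list was -0.13 with all arrays and -0.14 without array 24, against 0.04 over all genes. The mean level of the 53 genes was -0.09, -0.14, -0.19 and -0.12 in both-fragment replicates 1 to 4, between 0.06 and 0.18 in WT and between -0.50 and -0.18 in VOID. In this mean all 4 both-fragment arrays were below all WT arrays. Replicates 1, 2 and 4 were above all VOID arrays, and replicate 3 (-0.19) was just below the highest VOID array (-0.18). The number that fell was 2 with normexp correction (0.153% of all genes) and 2 with the slide as a block (0.193%). With the sets as a block 10 fell (3.54%). With that block and without array 24, 15 fell and 10 rose, beside 13.3% and 17.1% over all genes. With arrays 22, 23 and 24 left out 10 fell and 6 rose, beside 3.45% and 2.26%. Classical targets that did not pass in either fit included Icam1 (-0.37 ± 0.31, and -0.36 ± 0.34 without array 24), Traf1 (-0.61 ± 0.27 and -0.53 ± 0.29), Birc3 (0.15 ± 0.23 and 0.40 ± 0.21), Tnf (0.21 ± 0.30 and 0.35 ± 0.33), Bcl2l1 (-0.04 ± 0.17 and 0.11 ± 0.16) and Myc (-0.05 ± 0.22 and -0.12 ± 0.24).

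**Figure D3:**
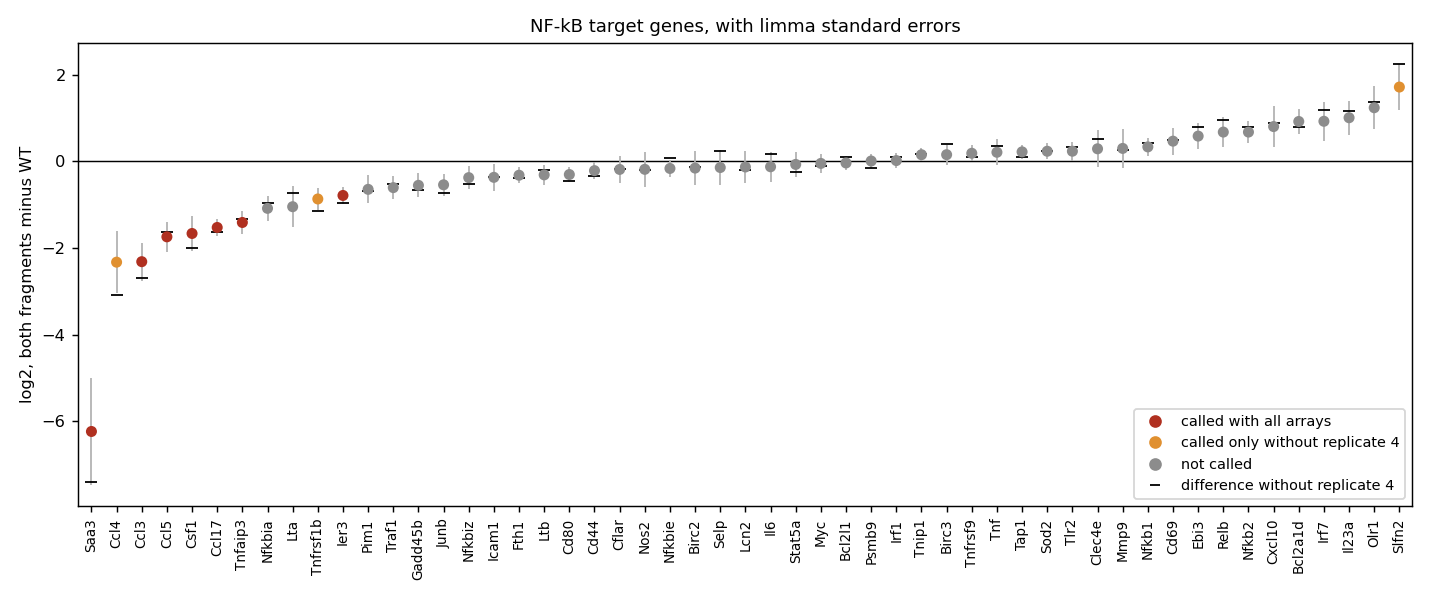
Differences of the 53 measured NF-kB target genes. The y axis is log2, both fragments minus WT with all arrays, with limma standard errors as bars (n = 4 arrays per group), and black dashes give the difference without array 24. The 7 red genes (called with all arrays) are all below 0; orange genes were called only without array 24, and 1 of them, Slfn2, is above 0.

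Ccl17, a chemokine for CCR4-bearing T cells, was at -4.00, -3.54, -3.92 and -3.38 in both-fragment and -2.06, -2.04, -2.18 and -2.45 in WT cells. All 4 both-fragment arrays, array 24 included, were below all WT arrays. Its difference was -1.53 ± 0.21 (adjusted p = 0.000503), and -1.64 ± 0.22 without array 24 (adjusted p = 0.000231). Ccl5, a chemokine for T cells and monocytes, was at -3.43, -3.34, -2.16 and -3.44 against -1.31, -1.14, -1.08 and -1.86, a difference of -1.74 ± 0.35 (adjusted p = 0.0167; -1.63 ± 0.38 without array 24). Ccl3, a macrophage inflammatory chemokine, was above background on 0 both-fragment and 3 WT arrays, and was at least 1.95-fold lower (adjusted p = 0.0126; at least 2.06-fold without array 24). Its neighbour Ccl4 was at -3.53, -3.89, -2.63 and -0.29 against -1.0, -0.51, 0.52 and -0.04. Array 24 lay within the WT arrays for Ccl4, and the gene passed only without that array (-3.09 ± 0.65, adjusted p = 0.00847; -2.33 ± 0.71 and 0.147 with all arrays). Ccr7, the lymph node homing receptor, was at -3.77, -4.17, -2.59 and -1.08 against 0.24, 0.61, 0.97 and -0.18 and fell by 3.32 (adjusted p = 0.0184; 3.93 without array 24). In all, 4 of 21 measured chemokines and their receptors fell and 0 rose with all arrays, beside 0.921% and 0.107% over all genes. Without array 24, 6 of 22 fell and 1 rose, Cxcl3, beside 2.34% and 1.13% over all genes. Cxcl3 entered the test only through both-fragment replicates 1 to 3, which fixed its direction.

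Cytokines of other families fell as well: 5 of 14 measured interleukins and colony-stimulating factors with all arrays, where 0.921% of all genes fell, and 7 without array 24, where 2.34% fell. None rose in either fit. Il4, a type 2 cytokine like Il13, was at -5.43, -5.73, -4.79 and -4.79 in both-fragment and -2.30, -1.52, -1.34 and -3.63 in WT cells. No both-fragment array was above background, and Il4 was at least 7.54-fold lower (adjusted p = 0.0217; at least 8.11-fold without array 24). Il16, a CD4 ligand, was at -0.72, -0.96, -0.09 and -0.01 against 0.60, 0.75, 0.91 and 0.85, a difference of -1.22 ± 0.21 (adjusted p = 0.00603; -1.37 ± 0.22 without array 24). Csf1, the macrophage growth factor, was at -3.77, -3.68, -3.25 and -2.23 against -1.77, -1.73, -1.06 and -1.70, a difference of -1.67 ± 0.39 (adjusted p = 0.0425; -2.0 ± 0.39 without array 24). The groups did not overlap in these 3 genes. Osm and Lif, neighbouring cytokines that signal through gp130, differed by -2.23 ± 0.47 (adjusted p = 0.0245) and -1.82 ± 0.47 (adjusted p = 0.0661), and both passed without array 24 (-2.52 ± 0.50 and -2.08 ± 0.50, adjusted p = 0.00545 and 0.021). Il34, another ligand of the Csf1 receptor, passed without array 24 (-2.14 ± 0.41, adjusted p = 0.00432) and, with all arrays, with the sets as a block (adjusted p = 0.0408). Counts for this list were 1 with normexp correction (0.153% of all genes lower) and 2 with the slide as a block (0.193% lower), with all arrays.

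Of 26 measured cytokine and growth factor receptors, 4 fell in both fits, beside 0.921% of all genes with all arrays and 2.34% without array 24, and 1 rose without array 24, beside 1.13%. Il2ra, the alpha chain of the interleukin 2 receptor, was at -4.92, -4.91, -3.99 and 0.84 in both-fragment and 1.83, 2.13, 0.41 and 2.22 in WT cells. Array 24 lay within the WT range while the other 3 were far below it. Il2ra differed by -4.89 ± 1.12 (adjusted p = 0.0355), and by -6.26 ± 0.94 without array 24 (adjusted p = 0.000631). Csf2rb, the common beta chain of the IL-3, IL-5 and GM-CSF receptors, was at 4.46, 4.28, 4.94 and 5.15 against 5.62, 5.85, 5.62 and 5.84, a difference of -1.02 ± 0.21 (adjusted p = 0.019; -1.17 ± 0.21 without array 24). Csf2rb2, the IL-3-specific beta chain, differed by -0.93 ± 0.22 (adjusted p = 0.0435; -1.06 ± 0.23). Their sequences are closely related, so their probes are not independent measurements. Il27ra fell by 0.71 (adjusted p = 0.0126; 0.81 without array 24). The receptor that rose was Epor, the erythropoietin receptor (0.44 ± 0.11, adjusted p = 0.0316; 0.28 ± 0.13 with all arrays).

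In the TNF family Tnfsf14, the ligand LIGHT, was at 2.50, 2.37, 2.45 and 2.77 against 3.83, 4.00, 3.47 and 3.85 and fell by 1.27 (adjusted p = 0.00295), and by 1.35 without array 24. It was the only one of 19 measured members called with all arrays, where 0.921% of all genes fell. All 4 both-fragment arrays were below all WT arrays, and the call held under each of the 23 alternatives run with all arrays. Without array 24, Tnfrsf1b, the second TNF receptor, also fell (-1.15 ± 0.23, adjusted p = 0.00571) and Tnfsf13b, the B cell survival factor BAFF, rose (1.18 ± 0.28, adjusted p = 0.0213). With all arrays their differences were -0.87 ± 0.26 and 0.80 ± 0.33 and did not pass; Tnfrsf1b passed with the sets as a block (adjusted p = 0.0463).

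Some genes that were higher in WT than in VOID cells were at the VOID level in both-fragment cells. Grb7, an SH2 adaptor of receptor tyrosine kinases, was at -0.25, -0.36, 0.16 and -0.19 in both-fragment and 1.55, 1.36, 1.63 and 1.55 in WT cells, with a VOID mean of -0.03. Array 24 did not stand apart. Grb7 fell by 1.68 ± 0.15 (adjusted p = 1.03e-06), and by 1.67 without array 24 (adjusted p = 8.93e-06). Map3k19, a MAP kinase kinase kinase, and Prkd3, a protein kinase D, were above background on all 4 WT arrays and on no both-fragment or VOID array. They were at least 2.70-fold and 2.11-fold lower (adjusted p = 3.13e-07 and 1.03e-06; at least 2.85-fold and 2.23-fold without array 24). Outside WT, Map3k19 read -5.83 or lower on every array of the series, while Prkd3 read -4.04 to -3.26 in D361E. Map3k19 thus appears to have entered the test only through the WT arrays. The filter then fixed the direction of its difference, and its adjusted p is no support for a fall. Grb7, Map3k19, Prkd3 and, above, Itih3 were on a list of 22 genes known to lead other comparisons of the series, so their fall is not independent evidence. Of the 16 members measured, 5 fell and 1 rose in both fits. The shares over all genes were 0.921% and 0.107% with all arrays, and 2.34% and 1.13% without array 24.

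Survival, adhesion and signalling genes also held falls. Bcl2, the anti-apoptotic founder of its family, was at -0.43, -0.73, -0.42 and 2.33 against 3.76, 3.73, 4.05 and 3.23. All both-fragment arrays were below WT, array 24 by the least. Bcl2 differed by -3.51 ± 0.82 (adjusted p = 0.0387; -4.22 ± 0.80 without array 24), and with all arrays the call held under 12 of 23 alternatives. It was the only one of 16 measured family members to pass in either fit, where 0.921% of all genes fell with all arrays and 2.34% without array 24. Itgb7, an integrin beta chain of gut homing, was at 1.37, 1.41, 2.06 and 1.56 against 2.85, 2.91, 2.50 and 2.73, a difference of -1.15 ± 0.18 (adjusted p = 0.00295; -1.14 ± 0.20). Selplg, the ligand of P-selectin, fell by 0.78 (adjusted p = 0.0317; 0.98 without array 24). Cd200r2 was at -2.36, -2.90, -2.06 and -1.96 against -0.38, -0.14, -0.34 and -0.37 and fell by 2.01 (adjusted p = 0.000155; 2.14 without array 24), with a VOID mean of 2.27 above WT. Tyrobp, the signalling adaptor DAP12, fell by 2.04 (adjusted p = 0.031; 2.64), Lat, an adaptor of the T cell receptor, by 1.00 (adjusted p = 0.013; 0.97), and Socs1, a STAT-induced inhibitor of cytokine signalling, by 1.44 (adjusted p = 0.0461; 1.44). Atf5, a factor of the integrated stress response, was at 2.79, 2.66, 2.10 and 2.58 against 3.95, 3.82, 4.19 and 3.92, a difference of -1.44 ± 0.24 (adjusted p = 0.00451; -1.45 ± 0.27). Cebpb, a myeloid and inflammatory transcription factor, differed by -1.03 ± 0.24 (adjusted p = 0.0394; -1.26 ± 0.23).

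Fewer genes rose. B3gnt5, the glycosyltransferase that starts lacto-series glycolipids, was at -2.19, -1.53, -1.64 and -2.87 in both-fragment and -4.84, -4.96, -4.82 and -5.72 in WT cells. All both-fragment arrays were higher, and 2 of 4 WT arrays were above background. B3gnt5 rose by 3.03 ± 0.37 (adjusted p = 0.000155), and by 3.30 ± 0.38 without array 24 (adjusted p = 4.28e-05); normexp correction ended the call. Slc17a8, a vesicular glutamate transporter, was at -0.31, -0.27, -0.47 and -4.43 against -4.97, -4.68, -4.54 and -4.73. Array 24 was just above the WT arrays and the other 3 were far above. Its difference was 3.36 ± 0.78 (adjusted p = 0.0382), and 4.38 ± 0.61 without array 24. Cd5, a scavenger receptor of T cells, was at -2.59, -2.82, -1.25 and -3.78 against -5.70, -4.45, -5.10 and -5.11, a difference of 2.48 ± 0.55 (adjusted p = 0.031; 2.87 ± 0.57). Cenpp, a centromere protein, was at 3.79, 3.88, 2.86 and 1.91 against 1.29, 1.25, 0.83 and 1.44, a difference of 1.91 ± 0.41 (adjusted p = 0.0246; 2.31 ± 0.39). The 6 smaller rises were Tnfsfm13 (1.55 ± 0.36, and 1.87 ± 0.35 without array 24), Mc1r (1.01 ± 0.25), Echdc1 (0.98 ± 0.23 and 1.07 ± 0.25), Setmar (0.87 ± 0.19 and 0.96 ± 0.20), Mmd (0.82 ± 0.16 and 0.89 ± 0.17) and Celf6 (0.81 ± 0.19 and 0.97 ± 0.18). Mc1r, the melanocortin receptor, did not pass without array 24 (0.94 ± 0.27, adjusted p = 0.0593), unless the sets were a block (adjusted p = 0.00425).

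**Figure D4:**
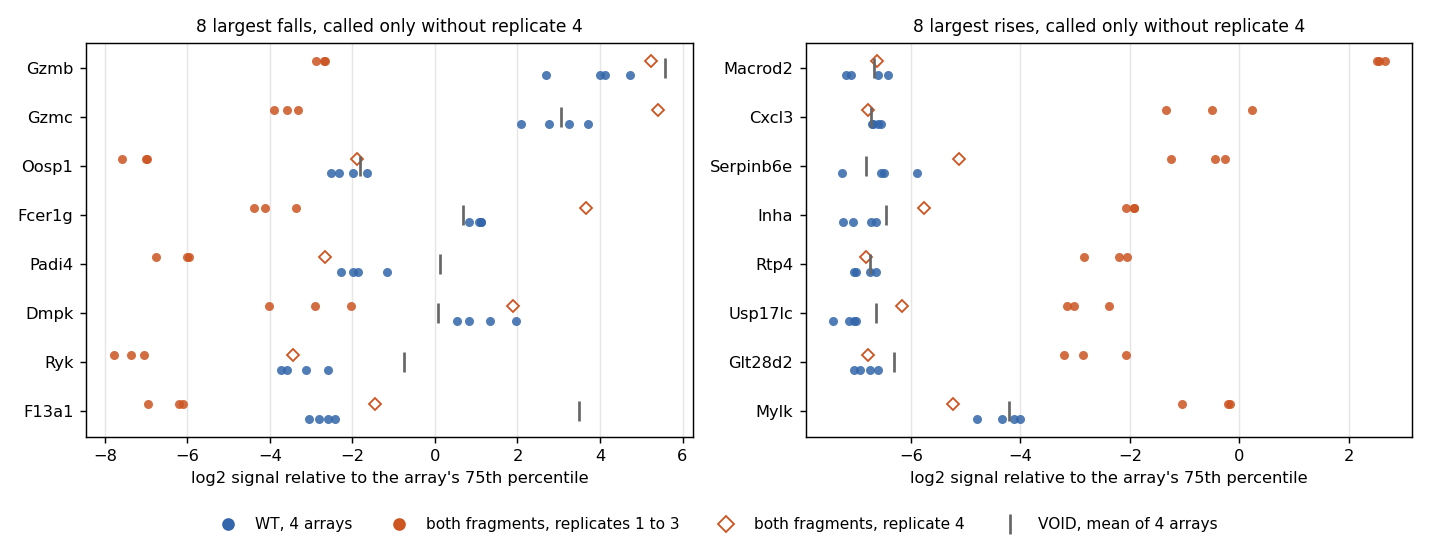
Signal of the 8 largest falls and 8 largest rises called only without the array numbered 24. The x axis is log2 signal relative to the array's 75th percentile, with blue points for the 4 WT arrays, filled orange points for both-fragment replicates 1 to 3, open diamonds for replicate 4 (array 24) and grey bars for the VOID mean. Array 24 lies near the WT arrays, or beyond them on the other side, for most of these genes, as for Macrod2 (-6.63) and Gzmb (5.23). The rises other than Mylk entered the test only through both-fragment replicates 1 to 3.

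The genes called only without array 24 numbered 372, and 1 of them, Macrod2, had the largest difference of the named genes. Macrod2, a mono-ADP-ribose hydrolase, was at 2.55, 2.51, 2.66 and -6.63 in both-fragment replicates 1 to 4 and at -7.18, -7.10, -6.60 and -6.42 in WT. Replicates 1 to 3 were close together, and array 24 was at the level of the WT arrays, none of which was above background. Without array 24 Macrod2 was at least 199-fold higher (adjusted p = 0.000471), and its level on the array numbered 23 was 2.62. Cxcl3, a neutrophil chemokine, was at -0.49, -1.34, 0.23 and -6.79 against -6.69, -6.61, -6.72 and -6.55, and at least 23.1-fold higher without array 24 (adjusted p = 0.000739). Serpinb6e, a serine protease inhibitor, Inha, the inhibin alpha chain, and Rtp4, an interferon-induced chaperone, were at least 21.3-fold, 8.51-fold and 6.50-fold higher (adjusted p = 0.00121, 0.000803 and 0.0134). No WT array was above background for these 5 genes. Usp17lc and Glt28d2 were at least 4.65-fold and 5.11-fold higher. These 2 and the 5 genes before them did not pass the filter on dim probes with all arrays. They entered the test only because both-fragment replicates 1 to 3 were above background. The filter thus fixed the direction of their differences, and their adjusted p-values are no support for a rise. Mylk, the myosin light chain kinase, was measured on all WT arrays and differed by 3.84 ± 0.44 (adjusted p = 4.28e-05; 2.65 ± 0.75 and 0.108 with all arrays), but a second Mylk probe differed by 0.40 without array 24.

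Over the 354 falls called without array 24, that array lay below all WT arrays for 191, within their range for 122 and above them for 41. Gzmb, the cytotoxic protease granzyme B, was at -2.89, -2.66, -2.69 and 5.23 against 2.69, 3.99, 4.74 and 4.13, so that replicates 1 to 3 were below all WT arrays and array 24 above them. Gzmb differed by -6.64 ± 1.37 (adjusted p = 0.00788), and by -4.64 ± 1.63 with all arrays (adjusted p = 0.225). Its neighbour Gzmc was at -3.91, -3.59, -3.31 and 5.40 against 2.08, 2.77, 3.71 and 3.24, a difference of -6.55 ± 1.36 (adjusted p = 0.00798; -4.30 ± 1.71 and 0.302 with all arrays). Fcer1g, the signalling chain shared by Fc receptors, was at -4.11, -4.38, -3.37 and 3.65 against 0.83, 1.06, 1.11 and 1.11, a difference of -4.98 ± 0.77 (adjusted p = 0.000757; -3.08 ± 1.23 and 0.303 with all arrays). Array 24 again exceeded every WT array for both genes. Padi4, which citrullinates histones, Oosp1 and F13a1, the coagulation factor XIII A chain, were above background on none of replicates 1 to 3 and at least 10.5-fold, 8.58-fold and 5.63-fold lower (adjusted p = 0.00667, 0.000313 and 0.0206). With all arrays these 3 differed by -3.53 ± 0.94, -3.75 ± 0.96 and -2.46 ± 1.04 (adjusted p = 0.0827, 0.0653 and 0.325), and Padi4 and Oosp1 passed with the sets as a block (0.0439 and 0.0368). A second Padi4 probe differed by -0.95 without array 24. Dmpk, a muscle kinase, differed by -4.16 ± 0.96 (adjusted p = 0.0173; -2.94 ± 1.08 and 0.258 with all arrays), and Ryk, a Wnt receptor, was at least 3.87-fold lower (adjusted p = 0.0255; -3.14 ± 1.06 and 0.203).

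Interferon-related genes divided. Of 34 measured interferon-stimulated genes, 4 rose (Herc6, Irf9, Mx2 and Rtp4) and 1 fell (Ifitm1) without array 24. The shares over all genes were 1.13% and 2.34%. Rtp4 entered the test only through both-fragment replicates 1 to 3, which fixed its direction. With all arrays 0 of 32 passed. The mean level of the 34 genes was 0.39, 0.32 and 0.22 in both-fragment replicates 1 to 3, and -0.28 on array 24. It was between -0.15 and -0.06 in WT, between -0.39 and -0.30 in VOID, and 0.42 on the array numbered 23. Mx2, an antiviral GTPase, was at -1.0, -1.29, -1.56 and -2.80 against -2.49, -3.12, -2.99 and -3.07 (1.63 ± 0.39, adjusted p = 0.0206; 1.26 ± 0.41 and 0.181 with all arrays), and Herc6 differed by 0.95 ± 0.20 (adjusted p = 0.00932; 0.78 ± 0.20 and 0.0716). Ifitm1, a membrane protein that restricts viral entry, was at 3.89, 4.12, 3.92 and 6.32 against 6.40, 6.42, 6.20 and 6.65 (-2.44 ± 0.39, adjusted p = 0.000876; -1.85 ± 0.47 and 0.0624 with all arrays). With the sets as a block, Herc6 and Ifitm1 also passed with all arrays (adjusted p = 0.0209 and 0.0374), and 16 members rose and 4 fell without array 24, beside 17.1% and 13.3% over all genes. Of 15 measured guanylate-binding and IRG proteins, 2 fell and 0 rose with all arrays (0.921% and 0.107% over all genes), and 3 fell and 2 rose without array 24 (2.34% and 1.13%), with medians of 0.02 and 0.15. Gbp4 fell by 2.90 (adjusted p = 0.03; at least 5.31-fold lower without array 24) and Gbp11 by 2.54 (adjusted p = 0.0207; 2.52 without array 24). Gbp9 fell without array 24 (-2.24 ± 0.52, adjusted p = 0.0178; -1.82 ± 0.52 and 0.115 with all arrays, and 0.0416 with the sets as a block). The related GTPases Tgtp2 (1.24 ± 0.28, adjusted p = 0.0165; 0.86 ± 0.33 with all arrays) and Ifi47 (0.68 ± 0.19, adjusted p = 0.0482; 0.47 ± 0.20) rose without array 24.

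**Figure D5:**
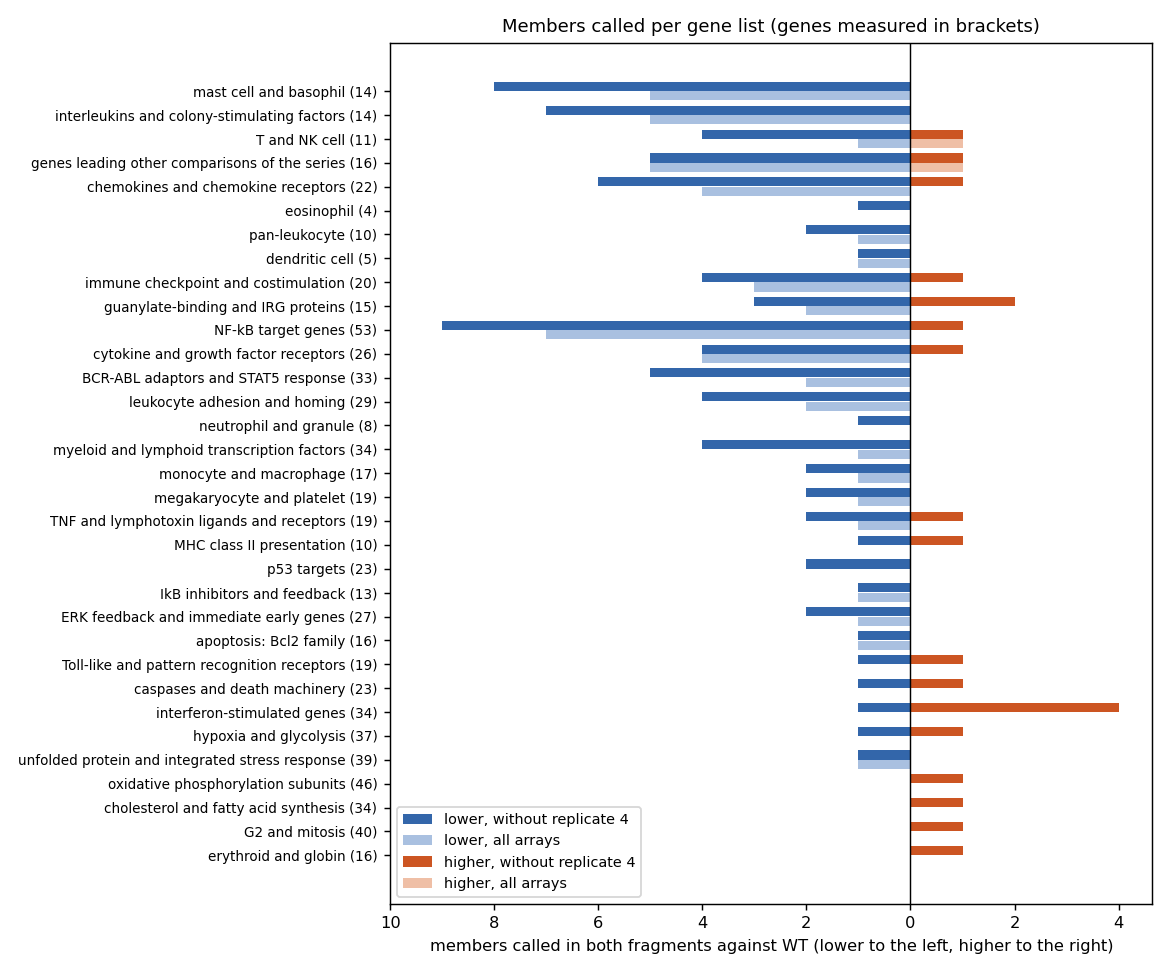
Members called per gene list, for the lists with at least 1 call without array 24. Bars to the left count genes lower and bars to the right genes higher in both fragments against WT, dark without array 24 and pale with all arrays, and the brackets give the genes measured without array 24. Mast cell and basophil genes lead by share, with 8 of 14 lower without array 24.

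Proliferation and housekeeping lists had few calls, where 1.03% of all genes were called with all arrays and 3.47% without array 24. Of 43 measured DNA replication genes 0 passed in either fit, with a median difference of 0.54 with all arrays and 0.43 without array 24. Their mean level was 2.57, 2.62, 1.60 and 2.61 in both-fragment replicates 1 to 4 and 2.02, 1.87, 1.30 and 2.42 in WT replicates 1 to 4. The both-fragment array was higher than the WT array of the same set in all 4 sets, while the arrays of a group spread widely between sets. With the sets as a block, 20 of the 43 rose with all arrays, where 3.82% of all genes rose, and 30 rose and 1 fell without array 24, where 17.1% and 13.3% of all genes did. For G2 and mitosis genes 0 of 40 passed with all arrays and 7 rose with the sets as a block, where 3.82% of all genes rose. Foxm1, a transcription factor of mitotic genes, rose without array 24 (0.66 ± 0.15, adjusted p = 0.0178), and with all arrays (0.58 ± 0.14, adjusted p = 0.0562) it passed with the sets as a block (0.0202). Calls were also 0 in both fits for MHC class I presentation (26 genes), heat shock chaperones (21) and oxidative stress and heme (27). Abl1 and Bcr, the genes of the fusion, differed by 0.28 ± 0.20 (adjusted p = 0.555; 0.33 ± 0.22 without array 24) and -0.12 ± 0.19 (adjusted p = 0.792; -0.03 ± 0.20).

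Markers of other blood lineages were also counted. Beside these counts, 0.107% of all genes rose and 0.921% fell with all arrays, and 1.13% and 2.34% without array 24. None of the measured B cell (6), stem and progenitor (6) or, with all arrays, erythroid (15), neutrophil (8) and eosinophil (4) markers was called. Without array 24, Ms4a3 and Epx, granule-lineage genes, fell, Ms4a3 by 2.82 (adjusted p = 0.00632; -1.78 ± 0.75 with all arrays) and Epx by at least 2.46-fold (adjusted p = 0.00915; -1.36 ± 0.88). Adgre1, the macrophage antigen F4/80, was at least 10.6-fold lower (adjusted p = 0.00823; -2.61 ± 0.80 and 0.147 with all arrays). Fcgr2b, the inhibitory Fc receptor, fell in both fits (-2.19 ± 0.52, adjusted p = 0.0426; -2.88 ± 0.40 without array 24), as did Vwf, the platelet adhesion protein von Willebrand factor (-1.75 ± 0.42, adjusted p = 0.0461; -1.96 ± 0.45). Of 11 measured T and NK cell markers, Cd5 rose and Lat fell with all arrays, and Cd3d, Gzmb and Gzmc also fell without array 24. Of the 10 pan-leukocyte genes, Tyrobp fell with all arrays and Cd53 also without array 24 (-2.06 ± 0.53, adjusted p = 0.0318), and Cd53 passed with all arrays with the sets as a block (0.0202). The part of cell makeup in the falls described above was not tested.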

How the data were processed

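Expression was measured on 24 one-colour arrays, 4 for each of 6 transfection groups. The deposited files hold, per spot, a background-corrected processed signal intensity from Agilent Feature Extraction 10.7.3.1 (per the submitters' processing notes), without normalization between arrays. The values in the deposited table of the series equal that intensity (largest difference 0). Taken as log2 minus the array's 75th percentile, as in the main fit, they served as an alternative that repeats the same data. Probe coordinates in the files are of build mm9.

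Replicates were numbered by accession, and the title number is given where an array is singled out. Control spots and spots marked uneven or as outliers were left out (181 probe values missing), spots of a probe were averaged, and the brightest probe stood for a gene. Of 39429 probes, 27592 were named through a RefSeq accession, the others as in the file. A gene entered the test if at least 1 group had its probe well above background on every array. Group means over the 24 arrays (23 without array 24) were fitted with limma 3.58.1 in R 4.3.3 (statmod 1.5.0, and version 1.17.8 of the data.table package), and p-values adjusted by Benjamini-Hochberg over all genes, a procedure also run on simulated data. If no array of the dimmer group was above background, the fold is a lower bound: the brighter group's mean against, per array, the probe's own signal or the lowest signal well above background, whichever was higher.

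Genes were named by rule: Rela, Abl1 and Bcr, up to 12 falls and 12 rises of largest size among called genes with a usable symbol whose groups did not overlap, 8 of each called only without array 24, up to 4 called members per gene list (42 lists), and every measured NF-kB subunit or IkB regulator. Other names were chosen after their values were seen. The comparison, its members and the lists were chosen with earlier results of these data known.

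Title numbers run in 4 sets of 6. Deviations from the group means correlated over genes at 0.278, 0.215, 0.711 and 0.268 between the both-fragment and WT arrays of the same set, and at -0.674 to 0.454 between different sets. Each same-set correlation exceeded 0.1, and the sets were therefore run as a block, as an alternative to the main fits. Only set 3 (0.711) exceeded every pair from different sets, and the labels name no pairing. A pairing by set is thus not shown for the other sets, and calls that need this block depend on it. Slides, per the file headers, held 4 arrays each. Promoters were searched with Python 3.11.15.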

Additional observations from a re-analysis of the deposited data

Results flagged for a closer look

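In 16 of 96 groups of 4 arrays checked, 1 array lay farther from the others than Dixon's critical value, with the gap to the nearest array divided by the range of the group. Chance alone gives about 1 in 20 groups. In 14 of the 16 the array was both-fragment replicate 4, the array numbered 24.

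Among genes called with all arrays, array 24 was the low array for Slc17a8 (gap 0.953 of the range) and Tnfsfm13 (0.949), both higher in the other 3 both-fragment arrays than in WT. It was the high array for Tph1 (0.932), Lat2 (0.921), Cma1 (0.918) and Tmem273 (0.849), all lower in the other 3.

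Among genes called only without array 24 it was the low array for Macrod2 (0.984), Inha (0.963) and Rtp4 (0.838), and the high array for Gzmb (0.972), Gzmc (0.936), Oosp1 (0.891), Fcer1g (0.874) and F13a1 (0.846). In each case it lay on the WT side of the other 3 arrays. These genes were called because the array was left out, so the gaps repeat the choice.

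WT replicate 4 was the low array for B3gnt5 (0.85) and had the lowest share of spots well above background of its group (0.873).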

How the results depend on the processing

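For all arrays and without array 24, the 154 and 525 calls became 24 and 122 with normexp background correction (4.17% and 18.0% of them higher, against 10.4% and 32.6%), 63 and 342 with no filter on dim probes, and 31 and 127 with the slide as a block. The sets as a block gave 1103 and 4590, and array weights 8025 and 7914, with 8.77 the largest weight (both-fragment replicate 1). With all arrays, requiring signal on every array gave 82, fitting only the 2 groups 54, and leaving out arrays 22 and 23, an alternative chosen after seeing the data, 358. Without arrays 22, 23 and 24, 870 were called. Leaving out 1 array gave 33 (both-fragment replicate 1) to 525 (array 24), and without array 24, 200 (replicate 2) to 680 (replicate 3). Other alternatives, such as quantile normalization, stayed within 1.5 times. The deposited table, counted among the alternatives, holds the same signal and had to return the same calls, so it is no check. The cause of these shifts was not tested.

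The median of all genes stayed between -0.05 and 0.06 under each setting run with all arrays. Of named genes, 8 of 50 called with all arrays and 27 of 100 called without array 24 held under every alternative that gave them a value. The replicate block formed by the sets ended no call of a named gene and added 18 calls with all arrays and 8 without array 24. The slide as a block ended 35 and 55 named calls, and normexp correction 38 and 61.

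Signs reversed only in genes that were not called. Without array 24, Bcr was at 0.10 and Rc3h1 at 0.021 with the slide as a block, and Nfkbie at -0.061 with array weights; with all arrays Nfkbie was at 0.081 without arrays 22, 23 and 24. Leaving out 1 array ranged, with all arrays, from -0.29 to 0.081 (Nfkbie), -0.28 to 0.042 (Tnip2) and -0.048 to 0.20 (Otulin), and without array 24 from -0.12 to 0.047 (Bcr), -0.063 to 0.45 (Nfkbid), -0.30 to 0.072 (Tnip2) and -0.085 to 0.25 (Otulin).

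Signals near background bound the folds of the dimmest genes, and slide 6 pairs a WT array only with array 24.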

Other observations

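Further gene groups had a few calls each. Of 20 measured immune checkpoint and costimulation genes, 3 fell with all arrays (Cd200r2, Cd200r3 and Lag3, an inhibitory receptor of T cells), beside 0.921% of all genes, and 4 fell and 1 rose without array 24, beside 2.34% and 1.13%. Cd200r4 fell without array 24, by 1.70 on the log2 scale (adjusted p = 0.0118 by limma; -1.46 ± 0.36 and 0.0521 with all arrays, or 0.0208 with the sets as a block). Pdcd1lg2, which encodes the ligand PD-L2, rose by 1.43 ± 0.35 without array 24 (adjusted p = 0.025; 1.15 ± 0.35 with all arrays). Among 33 measured BCR-ABL adaptors and STAT5 response genes, Osm and Socs1 fell with all arrays (0.921% of all genes), and Id1, Socs3 and Fyn also fell without array 24 (2.34%). These 3 did not pass with all arrays, but did so with the sets as a block (adjusted p = 0.0351, 0.033 and 0.049). Cish, a STAT5 target, did not pass in either fit (-1.60 ± 0.46, adjusted p = 0.122; -1.70 ± 0.51 without array 24). Among 34 measured myeloid and lymphoid transcription factors, Cebpb fell in both fits (0.921% and 2.34% of all genes), and Id1, Id2 and Spi1 fell without array 24, of which Id2 passed with all arrays with the sets as a block (adjusted p = 0.0338). Spi1, the master factor of myeloid cells, differed by -0.81 ± 0.22 without array 24 (adjusted p = 0.0486) and by -0.41 ± 0.29 with it (adjusted p = 0.553).

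The pyroptosis gene Gsdme, the p53 target Zmat3 and the protease gene Ctss fell without array 24 (adjusted p = 0.0201, 0.0297 and 0.012), and passed with all arrays with the sets as a block (0.0352, 0.0443 and 0.028). Without array 24, Idi1, an enzyme of cholesterol synthesis, rose by 1.71 ± 0.33 (adjusted p = 0.0049; 1.15 ± 0.42 with all arrays), the only one of 34 measured cholesterol and fatty acid genes, whose median difference was 0.32 against 0.04 over all genes. For oxidative phosphorylation subunits 1 of 46 rose without array 24, Ndufs3, and for hypoxia and glycolysis 1 of 37 rose, Hif1a, and 1 fell, Hk3, beside 1.13% and 2.34% over all genes.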
